A study of Rattus norvegicus with 24 samples.

Results

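Messenger RNA of the heart septum was compared between 2 groups of Sprague-Dawley rats on day 28 after cardiac ischemia-reperfusion: 6 rats whose brown adipose tissue (BAT) had been sympathetically denervated and whose cerebral ventricles were infused with leptin, and 6 rats with intact BAT infused with vehicle. These are 12 of the 24 libraries of the series, picked by the group named in each column header of the deposited table. All 12 rats shared the cardiac injury and the ventricular cannula. The other 12 rats also received leptin, 6 of them with intact BAT and 6 after BAT ablation. The comparison asks how close hearts of leptin-infused rats with denervated BAT lie to hearts that saw vehicle only. No denervated rat received vehicle, so the effects of denervation and of leptin cannot be told apart here. Age and sex are not given in the sources used here, and each library carries its own rat number. The series as a whole addresses a path from brain leptin receptors through BAT to the injured heart.

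BAT is a heat-producing fat depot whose activity is set by sympathetic nerves. Leptin, the hormone that reports fat stores, acts on hypothalamic neurons and raises sympathetic outflow to BAT. Heart muscle lives on oxidative phosphorylation. The mitochondrial genome encodes a small core of that machinery (subunits of complexes I, III, IV and V) together with the ribosomal and transfer RNAs needed to translate it. The nucleus encodes the remaining subunits and nearly all other mitochondrial proteins. Mitochondrial transcripts are abundant in heart RNA, so nuclear and mitochondrial genes were examined apart.

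The 12 libraries held 71587993 to 122910706 assigned reads, which fell on 18076 to 19579 genes each. Rat numbers split the libraries into sets whose profiles stand apart. The 7 highest rat numbers of the series, those of 3 vehicle, 2 denervated, 1 intact leptin and 1 ablated rat, form the high-numbered set. The other 3 vehicle and 4 denervated rats belong to the low-numbered set. Over nuclear genes, the root-mean-square (RMS) log2 difference between 2 libraries averaged 1.22 over the 35 pairs from different sets, against 0.737 over pairs of 1 group and 1 set. The labels do not say what the rat number stands for, so each result is given for all rats and with the set taken into account. The files identify genes by Ensembl ID without symbols. Heart markers, markers of other cell types and pathway lists could therefore not be looked up, and the labelled tissue was not checked against its markers. In bulk tissue, fewer cells of a type and less RNA per cell cannot be told apart.

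No nuclear gene was called between denervated leptin hearts and vehicle hearts. At an adjusted p below 0.05 in edgeR's quasi-likelihood test, 0 of 17325 nuclear genes passed, and the background over all 17347 genes tested was 0%. At an unadjusted p below 0.05 there were 336 nuclear genes, or 1.94%, of which 118 had a higher and 218 a lower level in denervated hearts. With a term for the rat-number set in the model the call remained at 0 genes, with 644 (3.72%) at an unadjusted p below 0.05, 306 higher and 338 lower. Both fits take their spread from all 24 libraries. With only the 12 libraries compared, edgeR also called 0 of 16351 nuclear genes, with 385 (2.35%) at an unadjusted p below 0.05. Adding the set term to that fit left 0 called and 1243 (7.60%) at an unadjusted p below 0.05. DESeq2 called 0 nuclear genes without the set term and 8 with it (with 2 mitochondrial genes, 0.0576% of the genes tested), and limma's voom with sample quality weights called 8008 without the set term. Those weights were 2.01 to 2.90 for the high-numbered vehicle libraries and 0.360 to 0.588 for the low-numbered ones. The denervated libraries had the opposite pattern, with 2.49 to 2.89 for low-numbered replicates 2 to 4, 0.593 for low-numbered replicate 1 and 0.441 for both high-numbered ones. With the set term the weighted voom count was 43, and voom without sample weights called 0.

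A missed threshold does not show that a gene stayed level, so the 95% interval of each log2 difference was set against a fold of 2. The interval lay wholly within that fold for 10052 nuclear genes (58.0%) in the model of groups alone and for 12928 (74.6%) with the set term. The precision depended on abundance. Among the 7442 nuclear genes with a mean of 10 to 100 CPM (read counts relative to library size, here on edgeR's TMM-scaled library sizes), the interval excluded a fold of 2 for 81.4%, and for 97.8% with the set term. Among the 1253 genes at 100 CPM or more the shares were 71.5% and 95.6%. Among the 3961 genes under 1 CPM only 10.1% and 16.4% were resolved to that degree. The typical nuclear gene differed little: the median absolute log2 difference was 0.18 in the model of groups alone and 0.13 with the set term. The same medians for intact BAT with leptin against the same vehicle libraries were 0.41 and 0.28. These comparisons share the 6 vehicle libraries, and the difference between the medians was not tested.

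**Figure D1:**
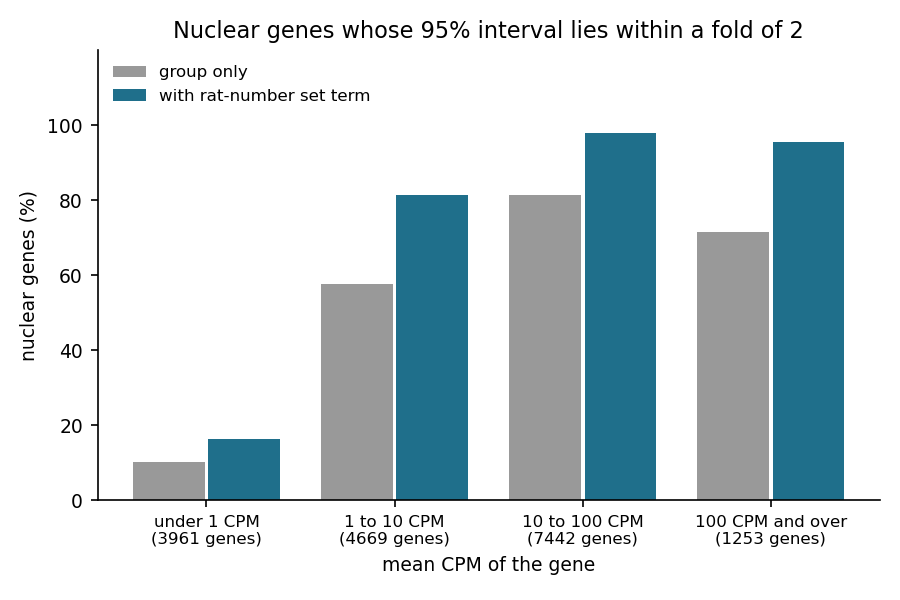
Percent of nuclear genes (vertical axis) whose 95% interval for denervated leptin hearts minus vehicle hearts lies within a fold of 2, by mean CPM (horizontal axis), in the model of groups alone (grey) and with the rat-number set term (blue). The share rises from 10.1% and 16.4% under 1 CPM to 81.4% and 97.8% at 10 to 100 CPM.

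In the test over all 12 libraries, whole nuclear profiles of denervated leptin hearts were not separated from vehicle hearts beyond the spread within groups. Over the 18 pairs of a denervated and a vehicle library within a rat-number set, the RMS log2 CPM difference over 17325 nuclear genes averaged 0.730. Pairs of denervated libraries averaged 0.805 and pairs of vehicle libraries 0.658, so the between-group mean lay above the vehicle spread and below the denervated one. The between-group mean minus the within-group mean was -0.00705 (exact two-sided permutation test within sets, 350 relabelings, p = 0.791). Denervated replicate 1, the shallowest of the 12 libraries, stood apart: it lay 0.854 to 1.01 from the low-numbered vehicle libraries and 0.969 to 1.04 from the other low-numbered denervated ones. The remaining low-numbered denervated libraries lay 0.651 to 0.789 from vehicle, overlapping the 0.641 to 0.750 between low-numbered vehicle libraries. In the high-numbered set, denervated and vehicle libraries were 0.609 to 0.674 apart and vehicle libraries 0.564 to 0.686 apart. The sign of the between-minus-within difference was not stable. It was 0.0290 without denervated replicate 1 (exact permutation p = 0.0900), 0.0198, 0.0131 and 0.0122 without replicates 2, 3 and 4, and 0.00438 over genes of at least 10 CPM.

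Rat by rat, the distance was taken from each library to the vehicle libraries of its own set. The 6 denervated libraries had a lowest value of 0.638, a median of 0.692 and a highest of 0.938. The vehicle libraries, measured against each other, ran from 0.594 through a median of 0.658 to 0.716. Within the low-numbered set, denervated replicates 1 (0.938) and 3 (0.760) lay above the vehicle range of 0.661 to 0.716 and replicates 2 and 4 inside it. Within the high-numbered set, replicate 6 (0.660) lay above the vehicle range of 0.594 to 0.655 and replicate 5 (0.638) inside it. Leptin hearts with intact BAT ran from 0.696 through a median of 0.899 to 1.01, and 5 of the 6 lay above the vehicle range of their own set. The mean was 0.730 ± 0.110 (SD, n = 6) for denervated BAT and 0.884 ± 0.113 (SD, n = 6) for intact BAT under leptin, a difference of -0.154 (exact two-sided permutation p = 0.0433). Labels were permuted over both leptin groups and not within the sets, although 2 denervated libraries and 1 intact leptin library are high-numbered. The call depends on single libraries and on the rat set: the low-numbered rats alone gave -0.106 (4 against 5 rats, exact permutation p = 0.222), and 11 of 18 tests that each left out 1 library gave an exact permutation p of 0.0519 to 0.0844. Both distances use the same vehicle libraries as their reference. Intact leptin libraries also lay 0.888 from each other on average within a set, about as far as from vehicle. Their between-minus-within difference from vehicle was 0.0819 (exact two-sided permutation test within sets, p = 0.0759). Whether the gap between the leptin groups reflects scatter among intact leptin libraries was not tested.

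**Figure D2:**
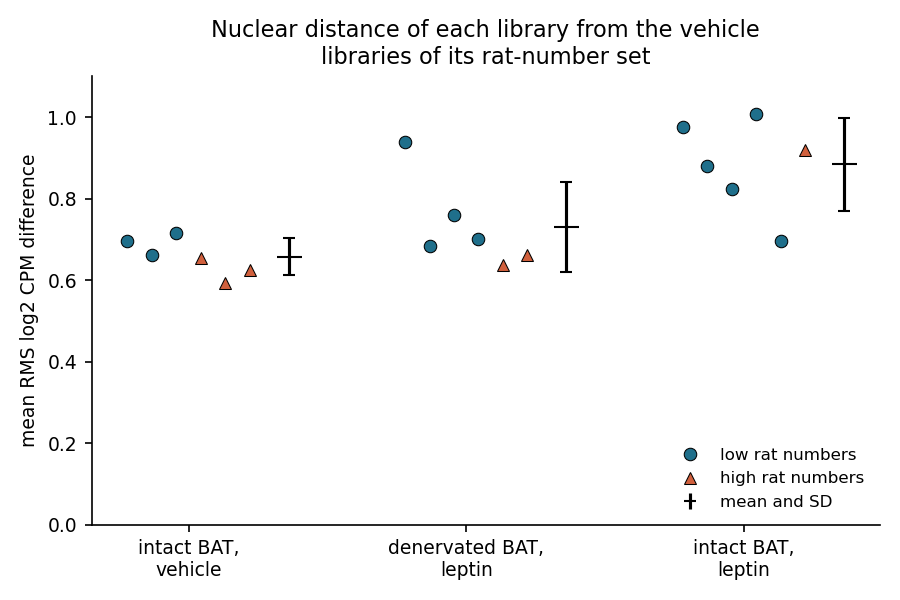
Mean RMS log2 CPM difference over nuclear genes (vertical axis) between each library and the vehicle libraries of its own rat-number set, for vehicle, denervated leptin and intact leptin hearts. Points are libraries (circles low-numbered, triangles high-numbered rats) and bars the mean ± SD, n = 6. Of the 6 denervated libraries 3 sit inside the vehicle range of their own set (0.661 to 0.716 low, 0.594 to 0.655 high), and replicate 1 stands at 0.938.

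Genes called in other comparisons of the series are given here as a description. With the set term, 1673 nuclear genes were called higher and 1546 lower after BAT ablation than with intact BAT under leptin. The ablated and intact leptin libraries are not in the groups compared here. They share the same model, however, and so enter its estimates of the spread and of the set term. The median log2 differences of these genes between ablated and intact hearts were 0.69 and -0.60. Those between denervated leptin hearts and vehicle hearts were 0.01 and 0.02. The median over all nuclear genes tested was 0.01. Without regard to sign, the medians in denervated leptin hearts were 0.10 for either list, against 0.13 over all nuclear genes. That median depends on abundance: it was 0.34 under 1 CPM, 0.15 at 1 to 10, 0.09 at 10 to 100 and 0.11 at 100 CPM or more. The lists were not matched for abundance, so 0.10 does not set them apart from other genes. The 722 genes called higher in leptin hearts with intact BAT than in vehicle hearts had a median of 0.61 there and 0.11 in denervated leptin hearts. The 341 called lower had -0.71 and -0.10. Each of those pairs of values subtracts the same vehicle libraries, and the genes were picked by the first value of each pair, so neither the shared sign nor the smaller second value is evidence of its own.

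Within the rat-number sets the counts differed. Among the high-numbered rats alone (2 denervated, 3 vehicle) edgeR called 123 nuclear genes, 48 higher and 75 lower, and with 7 mitochondrial genes this was 0.739% of the 17585 genes tested there. Among the low-numbered rats alone (4 denervated, 3 vehicle) it called 0 of 17867 nuclear genes. Each fit held all libraries of its set, 7 high-numbered and 17 low-numbered ones. In the low-numbered fit, intact leptin and ablated rats also enter the estimate of the spread. In the high-numbered fit they are 1 library each and do not. The counts of the 2 sets therefore rest on unlike estimates of the spread. At an unadjusted p below 0.05 in edgeR there were 387 nuclear genes (2.17%) in the low-numbered rats. In the high-numbered rats there were 2420 of 17561 (13.8%). The difference between the sets, tested as an interaction term, was called for 0 of 17325 nuclear genes, with 432 (2.49%) at an unadjusted p below 0.05. Of the 123 genes called in the high-numbered rats, 80 (65.0%) had the same sign in the low-numbered rats, against 53.1% over the 17065 nuclear genes tested in both. Their median difference, taken in the direction seen in the high-numbered rats, was 0.86 there and 0.14 in the low-numbered rats. Over all 17065 genes the same medians were 0.18 and 0.017. The 123 genes were picked by their values in the high-numbered rats, so the smaller second value is not evidence of its own.

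The nuclear genes nearest to a call are given by ID, 2 in each direction, chosen after their values were seen as those with the smallest p in the model with the set term among genes averaging 1 CPM or more in either group. None passed in edgeR, and all 4 passed in DESeq2 with the set term. Gene ENSRNOG00000011094 (mRatBN7.2 chromosome 7, 115019010 to 115206092, minus strand) ran from 11.4 CPM through a median of 37.8 to 70.5 in denervated hearts and from 8.35 through 10.3 to 29.0 in vehicle hearts. The ranges overlapped, with vehicle replicates 4 and 5 at 29.0 and 12.3 CPM and denervated replicates 2 and 6 at 11.4 and 17.3 CPM. Its log2 difference with the set term was 1.69 ± 0.34 (SE; edgeR adjusted p = 0.410), and in leptin hearts with intact BAT it was 1.46 ± 0.34 (edgeR adjusted p = 0.0201). Gene ENSRNOG00000053875 (chromosome 14, 81465299 to 81473781, minus strand) ran from 4.53 through 6.56 to 9.70 CPM in denervated hearts and from 2.46 through 3.14 to 4.01 CPM in vehicle hearts, with no overlap. Its log2 difference was 1.04 ± 0.23 (SE; edgeR adjusted p = 0.492).

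Of the lower genes, ENSRNOG00000068741 (chromosome 2, 225439772 to 225440096, plus strand) had a median of 5.15 and at most 6.03 CPM in denervated hearts, and a median of 7.51 and at least 6.13 CPM in vehicle hearts. The groups did not overlap, although high-numbered rats of the 2 groups came as close as 6.03 and 6.13 CPM. The log2 difference was -0.62 ± 0.14 (SE; edgeR adjusted p = 0.492), with -0.89 in the low-numbered and -0.25 in the high-numbered rats. Gene ENSRNOG00000063904 (chromosome 9, 113674649 to 114012478, minus strand) ran from 0.432 through 0.465 to 0.483 CPM in denervated hearts and from 0.539 through 0.998 to 1.63 CPM in vehicle hearts. Its log2 difference was -1.20 ± 0.28 (SE; edgeR adjusted p = 0.492), and 10 other annotated genes overlap its span, so its reads may be shared. Across all nuclear genes, every denervated library lay above every vehicle library for 22 genes (0.127%) and below for 26 (0.150%).

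**Figure D3:**
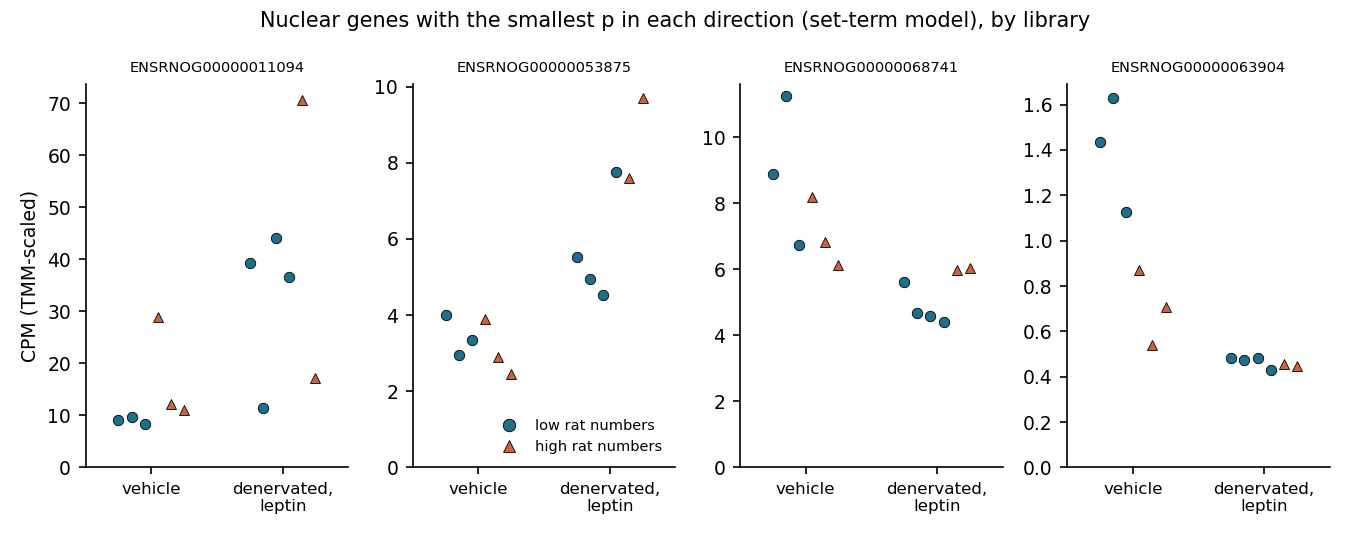
CPM on TMM-scaled library sizes (vertical axis, linear from 0) of 4 nuclear genes, the 2 higher and 2 lower ones with the smallest p in the model with the set term, in each vehicle and denervated leptin library (circles low-numbered, triangles high-numbered rats). The groups do not overlap for 3 of the 4 genes, and vehicle replicate 4 stands at 29.0 CPM for ENSRNOG00000011094.

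The mitochondrial chromosome gave another picture. It took a lowest share of 23.7%, a median of 26.5% and a highest of 29.8% of the assigned reads in denervated leptin hearts, and 33.3%, 35.2% and 36.6% in vehicle hearts. Every denervated library lay below every vehicle library. The means were 26.7% ± 1.97 and 35.2% ± 1.17 (SD, n = 6 each), a difference of -8.54 percentage points (exact two-sided permutation p = 0.00216, the smallest that 924 relabelings allow). Adjusted over the 5 library measures tested, the exact permutation p was 0.0108. The low-numbered rats alone gave -9.36 points (4 against 3, exact permutation p = 0.0286) and the high-numbered rats -7.60 points (2 against 3, exact permutation p = 0.1), each the smallest p its design allows. With labels permuted within the sets, the exact permutation p was 0.00286. The differences of the sets differed by 1.76 points (exact permutation p = 0.403). As log2 of mitochondrial over nuclear reads, the difference was -0.58. Leptin hearts with intact BAT ran from 24.4% through 33.6% to 41.1% and overlapped both groups.

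**Figure D4:**
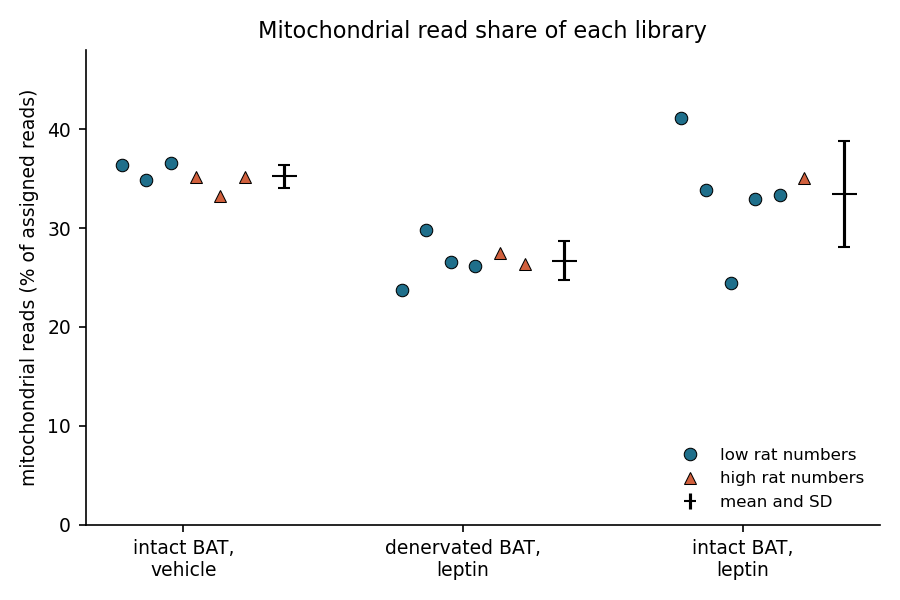
Mitochondrial reads as a percent of assigned reads (vertical axis) in each vehicle, denervated leptin and intact leptin library. Points are libraries (circles low-numbered, triangles high-numbered rats) and bars the mean ± SD, n = 6. All denervated libraries (23.7% to 29.8%) lie below all vehicle libraries (33.3% to 36.6%).

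The other library measures did not pass after adjustment. Denervated libraries had reads on 18987 genes on average and vehicle libraries on 19395, a difference of -408 (exact permutation p = 0.0238, adjusted p = 0.0595 over the 5 measures). Denervated replicate 1 was lowest with 18076. The share of nuclear reads in the 10 most abundant nuclear genes averaged 11.2% and 10.5% (exact permutation p = 0.682), and the gradient of expression with gene length, -0.03 and 0.08 on the log2 scale (exact permutation p = 0.515). Assigned reads were fewer on average in denervated libraries, within the spread of the groups (exact permutation p = 0.457). The part of any of these in the mitochondrial share was not tested.

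The lower share was seen at most, not all, tested mitochondrial genes. Of its 37 annotated genes, 22 passed the filter on low counts, and the 15 long ones (13 encoding proteins, 2 ribosomal RNAs) were all among them. In either model 20 of the 22 were below 0, and the 2 above 0 were transfer RNA genes. The files do not name these genes. They are called here by position, length and strand, in the gene order shared by mammalian mitochondrial genomes. All 13 protein-coding genes were below 0 in denervated hearts, against 51.3% of nuclear genes, with log2 differences of -1.01 to -0.45 (median -0.68), and of -0.94 to -0.40 (median -0.60) with the set term. None of the 22 genes passed the edgeR threshold one by one, although 12 had an unadjusted p below 0.05 and 15 did so with the set term. Among nuclear genes the shares at that p were 1.94% and 3.72%. The 95% interval lay wholly below 0 for 9 of the 13, and for 12 of the 13 with the set term, against 1.26% and 1.95% of nuclear genes. These fits take their spread from all 24 libraries. The mitochondrial share had an SD of 5.35 points in intact leptin and 8.24 in ablated hearts. With only the 12 libraries and the set term, 1 of 20 mitochondrial genes passed, the transfer RNA for proline (edgeR adjusted p = 0.0124). The 13 protein-coding genes had edgeR adjusted p values there from 0.0622 (ND3) to 0.349 (ND1). These genes are parts of the mitochondrial share given above, in the same libraries. They describe how the lower share is spread over genes and are not 13 separate tests of it. All 13 were below 0 in the low-numbered rats (median -0.64) and in the high-numbered rats (median -0.54). With scaling on nuclear genes alone the medians were -0.68 and -0.60.

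**Figure D5:**
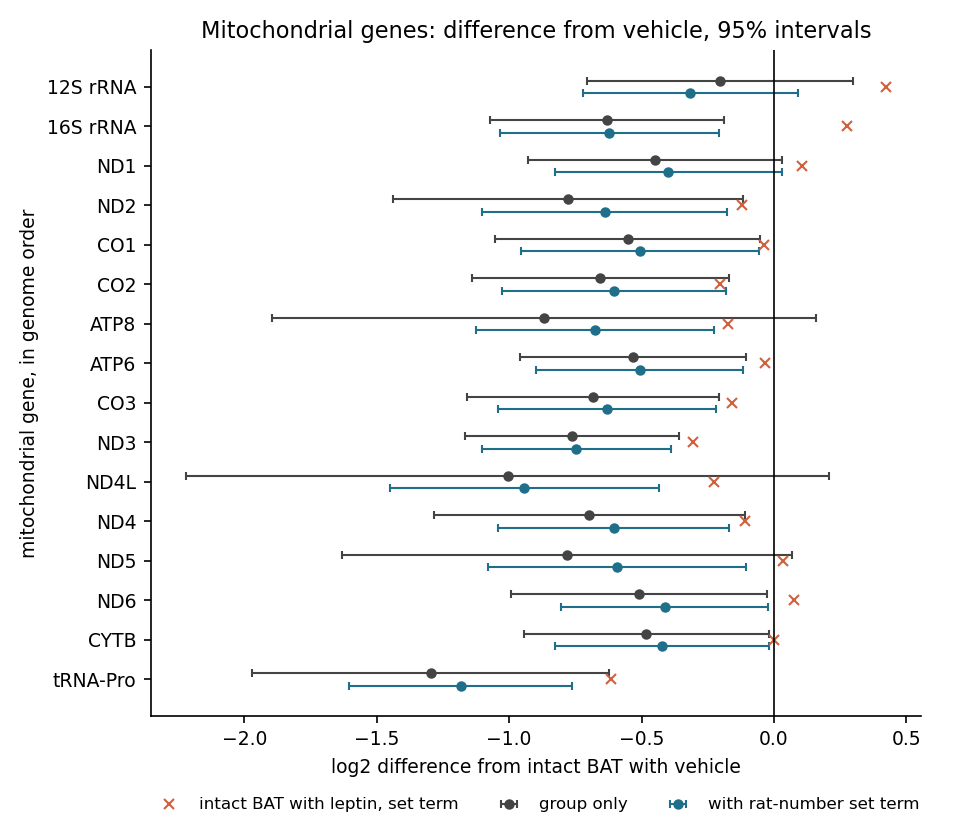
Log2 difference from vehicle hearts (horizontal axis) with 95% intervals for denervated leptin hearts, for 15 long mitochondrial genes and 1 transfer RNA gene in genome order (vertical axis), in the model of groups alone (grey) and with the rat-number set term (blue). Crosses mark leptin hearts with intact BAT, with the set term. All 13 protein-coding genes of denervated hearts lie between -1.01 and -0.40 in these models.

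Among subunits of complex IV, cytochrome c oxidase, CO3 (mRatBN7.2 mitochondrial 8599 to 9382, plus strand) separated the groups. It ran from 24465 CPM through a median of 30058 to 36581 in denervated hearts and from 42057 through 49207 to 56496 in vehicle hearts. Its log2 difference was -0.68 ± 0.23 (SE; edgeR adjusted p = 1.00) and -0.63 ± 0.20 with the set term (edgeR adjusted p = 0.999). CO1 (5323 to 6867), the catalytic subunit and the most abundant of the 13 per length, had 54379 CPM per kilobase in denervated and 79750 in vehicle hearts. Its ranges, 51358 to 104524 CPM and 97378 to 142823 CPM, overlapped through the high-numbered denervated rats, and its log2 difference with the set term was -0.50 ± 0.22 (SE). CO2 (7006 to 7689), which carries the site that accepts electrons from cytochrome c, had -0.60 ± 0.20 (SE).

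Complex I, NADH dehydrogenase, has 7 mitochondrial subunits. ND3 (9451 to 9798) ran from 2464 through 2767 to 3426 CPM in denervated hearts and from 4257 through 4893 to 5326 CPM in vehicle hearts, with no overlap. Its log2 difference was -0.76 ± 0.20 (SE; edgeR adjusted p = 1.00) and -0.75 ± 0.17 (SE; edgeR adjusted p = 0.492) with the set term, the smallest p of the 13. ND1 (2740 to 3694) also did not overlap, at 11451 through 16489 to 18000 CPM against 18488 through 20886 to 25366 CPM, with -0.40 ± 0.21 (SE) and a 95% interval that reached 0.03. ND4L (9870 to 10166) ran from 399 through 542 to 2357 CPM in denervated hearts and from 1109 through 1912 to 3587 CPM in vehicle hearts. Its low and high values followed the rat-number sets, and its log2 difference was -1.01 ± 0.59 (SE) without the set term and -0.94 ± 0.25 (SE) with it. ND2, ND4, ND5 and ND6 had log2 differences of -0.64, -0.60, -0.59 and -0.41 with the set term.

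In complex V, ATP synthase, ATP6 (7919 to 8599), part of the proton channel, ran from 22687 through 26879 to 28762 CPM in denervated hearts and from 34764 through 37424 to 44208 CPM in vehicle hearts. The groups did not overlap, and the log2 difference with the set term was -0.51 ± 0.19 (SE). ATP8 (7758 to 7961) had -0.67 ± 0.22 (SE). CYTB (14136 to 15278), the only mitochondrial subunit of complex III, had -0.42 ± 0.20 (SE), from a median of 36968 CPM in vehicle hearts to 25664 in denervated hearts. ATP8 with ATP6, ND4L with ND4 and ND5 with ND6 overlap on the genome, and the counting used no strand option, so partners are not fully separated. In all, 4 of the 13 protein-coding genes had no overlap between groups, against 0.150% of nuclear genes that were lower without overlap. The 13 are parts of the same mitochondrial share, so the 4 are not separate results.

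The non-coding genes varied more. The gene in the 16S ribosomal RNA place (1094 to 2664) ran from 1445 through 1842 to 2045 CPM in denervated hearts and from 2238 through 2609 to 4143 CPM in vehicle hearts, with a log2 difference of -0.62 ± 0.20 (SE) with the set term. The 12S place (68 to 1025) had -0.32 ± 0.20 (SE), with a 95% interval from -0.72 to 0.09. The transfer RNA for proline (15348 to 15415, minus strand), which lies beside the control region, had the smallest p of all 17347 genes in the model with the set term, but not in that of groups alone. It ran from 20.8 through 30.7 to 55.8 CPM in denervated hearts and from 55.7 through 83.1 to 123 CPM in vehicle hearts. The ranges touched between the high-numbered denervated rats and low-numbered vehicle replicate 3, and within each set the groups did not overlap. Its log2 difference was -1.30 ± 0.33 (SE; edgeR adjusted p = 1.00) and -1.18 ± 0.20 (SE; edgeR adjusted p = 0.101) with the set term. With only the 12 libraries and the set term it was -1.17 ± 0.13 (SE; edgeR adjusted p = 0.0124). Counting used no strand option and the library selected messenger RNA, so these values do not measure mature transfer RNA.

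The relative make-up of mitochondrial reads was compared for the 15 long genes, with labels permuted within the sets. CO3 took 12.0% ± 0.626 of mitochondrial reads in denervated and 12.8% ± 0.652 in vehicle hearts (SD, n = 6 each), a difference of -0.85 points averaged over the sets (exact permutation p = 0.0114). ND1 took 6.21% ± 0.504 and 5.59% ± 0.254, a difference of 0.503 points (exact permutation p = 0.0143). After Benjamini-Hochberg adjustment over the 15 genes both had p = 0.107 in these exact permutation tests, and none passed.

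Leptin hearts with intact BAT, set against the same vehicle libraries, had a median of -0.26 over the 13 protein-coding genes, and of -0.11 with the set term. The corresponding medians of denervated leptin hearts were -0.68 and -0.60. In intact leptin hearts the 16S and 12S places were at 0.28 ± 0.21 and 0.42 ± 0.20 (SE, set term), above 0, where denervated leptin hearts were at -0.62 and -0.32. These values are set side by side, since the vehicle libraries are shared, and the difference was not tested here.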

How the data were processed

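The 24 libraries are paired-end messenger RNA libraries of rat heart septum, per the labels' protocols. The file deposited by the authors gives whole-number read counts for 30562 genes. Per the submitters' processing notes the tools were STAR 2.7.10a, featureCounts 2.0.2, DESeq2 and R 4.4.1. Per the file headers counting used featureCounts 2.0.6 on Ensembl release 113 of mRatBN7.2, with no strand option. Values of 2 are found 19013 times against 5161 for 1, so both mates of a pair were probably counted. A further 5 count columns matched no listed sample and were not used. No 2 libraries were identical.

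Counts were used as deposited. Genes kept by filterByExpr entered edgeR 4.0.16 (R 4.3.3) with TMM scaling and a robust quasi-likelihood F test, all 24 libraries sharing 1 model, with Benjamini-Hochberg adjustment over the 17347 genes at 0.05. Rats are separate animals. A 2-level rat-number term (the 7 highest numbers against the others) was the chief alternative. Others were DESeq2 1.42.0, limma 3.58.1 (voom), other scalings and filters, a replicate block and single libraries left out. Distances are RMS differences of log2 CPM (prior count 2) over nuclear genes, scaled on nuclear reads. Exact permutation tests of library values are two-sided. Scripts were checked on simulated data.

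The comparison, the mitochondrial genes and the tests were chosen with earlier results of these data known. The name table matched 0 IDs, so gene lists, cell type markers and the symbol rule for named genes could not be used. The text names all long mitochondrial genes and, chosen after their values were seen, 4 nuclear IDs and 1 transfer RNA gene.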

Additional observations from a re-analysis of the deposited data

Results flagged for a closer look

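Vehicle replicate 4 stood apart from the other vehicle hearts for ENSRNOG00000011094, with 29.0 CPM against 8.35 to 12.3 CPM in the other 5. Its gap to the nearest library made up 0.810 of the group's range, above Dixon's 95% limit for 6 values. It was the only one of 44 groups of 6 values examined (mitochondrial genes, named nuclear genes and library measures in each group) to do so. Chance alone gives about 1 in 20, so 1 flag among 44 groups is no more than chance gives.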

How the results depend on the processing

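The replicate numbers of the labels were not taken to pair rats. The deviations of each library from its group's mean, gene by gene, were correlated between same-numbered denervated and vehicle libraries. The correlations were 0.49, 0.41, 0.25, -0.31, 0.71 and 0.67, and only replicate 5 correlated best with its own number. Replicates 5 and 6 were high-numbered in both groups. Replicate 4 was low-numbered in denervated and high-numbered in vehicle rats. With the replicate block edgeR called 0 nuclear and 0 mitochondrial genes, and 11668 intervals lay within a fold of 2. The 6 same-numbered differences in mitochondrial share averaged -8.54 points (exact two-sided sign-flip test, p = 0.0312, the smallest that 6 differences allow). The count of nuclear genes called became 123 in high-numbered rats alone, 8 in DESeq2 with the set term, 8008 in voom with sample quality weights and 43 with both weights and set term. The mitochondrial count became 7, 2, 17 and 2 in those settings, and 1 with only the 12 libraries and the set term. Leaving out 1 library gave 0 to 1 nuclear calls, the 1 being ENSRNOG00000011094 with the set term and without denervated replicate 6 (edgeR adjusted p = 0.0317). In the other settings run both counts stayed at 0. Intervals within a fold of 2 numbered 8810 to 13448 over the edgeR settings, the only ones with intervals. The number of genes tested differed between settings. As shares of nuclear genes, the intervals ran from 42.1% with no filter on low counts to 82.2% with only the 12 libraries and the set term. The mitochondrial share kept its direction throughout, with -7.60 in high-numbered rats alone (exact permutation p = 0.1, the smallest possible), and -9.16 to -7.95 with 1 library left out. The between-minus-within nuclear distance changed sign to 0.00438 over genes of at least 10 CPM. It ran from -0.0367 to 0.0290 with 1 library left out, being above 0 without denervated replicate 1, 2, 3 or 4 (0.0290, 0.0198, 0.0131 and 0.0122). The nearness of denervated leptin hearts to vehicle was no longer called with 1 minus Pearson's correlation (-0.0110, exact permutation p = 0.0541) and in low-numbered rats (-0.106), and ran from -0.195 to -0.114 with 1 library left out. Over genes of at least 10 CPM it was -0.198 (exact permutation p = 0.00866). For the 20 named genes, 822 of 859 values kept their side of the threshold and the other 37 passed it, and 0 changed sign. The causes were not tested. Genes under 1 CPM were too shallow for a fold of 2 to be resolved in most cases.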

Other observations

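Chromosome by chromosome, the median log2 difference of nuclear genes with the set term ran from -0.03 on chromosome 17 to 0.04 on chromosome 12 over the 21 chromosomes that held at least 100 tested genes. Of 5 classes of nuclear genes by exonic length, the shortest (36 to 1552 bases) had a median of 0.03 and the longest (4820 to 113560 bases) -0.02. Without the set term these medians were 0.05 and -0.06. Each class held 3465 genes. In the longest class, 10 genes were higher and 68 lower at an unadjusted p below 0.05 without the set term (2.25%). With it there were 55 and 107 (4.68%). In the shortest class the counts were 40 and 33 (2.11%), and 62 and 55 (3.38%) with the set term. Over all nuclear genes they were 118 and 218 (1.94%), and 306 and 338 (3.72%) with the set term. Among nuclear genes of 100 CPM or more, 44 were higher and 3 lower at an unadjusted p below 0.05 with the set term. That share of 3.75% is near the 3.72% over all nuclear genes. Without the set term there were 7 and 2 (0.718%). The median differences over all 1253 were 0.07 with the set term and 0.02 without it.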
